A study of Homo sapiens with 12 samples.

Results

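Serine palmitoyltransferase joins serine to a fatty acyl-CoA and so opens the synthesis of every sphingolipid. The 10 genes described here encode its 3 large subunits (SPTLC1, SPTLC2 and SPTLC3), its 2 small subunits (SPTSSA and SPTSSB) and 5 enzymes that carry the product on to ceramide: the reductase KDSR, the ceramide synthases CERS2, CERS5 and CERS6, and the desaturase DEGS1. They are 10 of the 60648 genes in the deposited count table, and all 10 were among the 18289 genes that passed the filter on low counts. The genes were listed by name for their place in the pathway, and the list was chosen by a measured value of SPTLC3, its counts being near 0 in wild-type cells and not in knock-out cells. Its difference between the genotypes is therefore given as a description, without a test. SPTLC3 passed the filter through the knock-out libraries, where it was high.

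The cells were HCT116, a human colorectal carcinoma line, grown in DMEM with fetal bovine serum and antibiotics. MTHFD2, a mitochondrial enzyme of folate-linked one-carbon metabolism that acts on a carbon unit derived from serine, was either wild type (MTHFD2-WT) or knocked out with CRISPR-Cas9 (MTHFD2-KO). RNA was taken at an initial harvest, right after the knock-out had been made (0 months), and at a final harvest after 2 months in culture, with 3 libraries from poly-A selected RNA in each of the 4 groups. The knock-out cells were a single isolated clone, so that a difference between the genotypes cannot be told apart from a difference between this clone and the wild-type cells. The labels call the 3 libraries of a group biological replicates without naming separate cultures, and p-values measure the spread between these libraries.

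In the enzyme, SPTLC1 pairs with SPTLC2 or with SPTLC3, and the pair holds the active site between them. SPTLC2 mainly gives the common long-chain bases, whereas enzyme containing SPTLC3 is known to accept shorter and branched acyl chains, and SPTLC3 is known for high expression in placenta and skin rather than in colon. The small subunits raise the activity of the complex and influence which acyl-CoA it takes, SPTSSB being linked to longer bases. KDSR then reduces the 3-keto product, a ceramide synthase adds a fatty acid whose length depends on which synthase acts, and DEGS1 inserts the double bond that turns dihydroceramide into ceramide.

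SPTLC2 and SPTLC3 are alternatives for the same place in the enzyme, so whether reads of one could be counted for the other bears on every SPTLC3 value. The coding sequences of the GENCODE 29 transcripts were 1686 bases for SPTLC2 and 1656 bases for SPTLC3, and 69.3% of 1638 aligned bases were identical. The longest run of identical bases was 20 long and lay across the junction of exons 6 and 7 in both genes. Only coding sequence was compared, which is a part of the exon sequence counted, and likeness over the length of a read was not measured. The stretch around the longest run is shown, with the shared 20 bases in capitals (GRCh38, SPTLC2 from the minus strand of chr14:77557116-77562444 and SPTLC3 from the plus strand of chr20:13093529-13110142, intron left out):
SPTLC2: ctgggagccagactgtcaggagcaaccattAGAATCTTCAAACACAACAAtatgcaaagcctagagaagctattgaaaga
SPTLC3: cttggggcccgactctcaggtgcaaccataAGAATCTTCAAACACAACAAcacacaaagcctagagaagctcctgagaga

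The small subunits SPTSSA and SPTSSB were the other pair of alternatives. SPTLC3 aside, SPTSSB was the one member whose genotype difference passed the test in the main fit, at the final harvest only. Their coding sequences were 213 and 228 bases long and were identical at 66.0% of 203 aligned bases, with a longest shared run of 14 bases. Promoter windows of 300 bases, from 250 before to 50 after the start of the gene, were matched in RefSeq (GRCh38.p14) for 8 of the 10 members. There was no entry for SPTLC3 or CERS2. Those of SPTSSB (minus strand, chr3:161371468-161371767) and SPTSSA (minus strand, chr14:34462191-34462490) are printed to set the subunit whose counts moved beside the one whose counts did not pass the test, with each CG dinucleotide in capitals:
SPTSSB: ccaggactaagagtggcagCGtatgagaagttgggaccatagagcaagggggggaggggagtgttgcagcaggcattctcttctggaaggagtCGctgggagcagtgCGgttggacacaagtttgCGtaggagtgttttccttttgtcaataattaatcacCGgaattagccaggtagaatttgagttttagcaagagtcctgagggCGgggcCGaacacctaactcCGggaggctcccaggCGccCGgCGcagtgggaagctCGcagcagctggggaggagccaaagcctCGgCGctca
SPTSSA: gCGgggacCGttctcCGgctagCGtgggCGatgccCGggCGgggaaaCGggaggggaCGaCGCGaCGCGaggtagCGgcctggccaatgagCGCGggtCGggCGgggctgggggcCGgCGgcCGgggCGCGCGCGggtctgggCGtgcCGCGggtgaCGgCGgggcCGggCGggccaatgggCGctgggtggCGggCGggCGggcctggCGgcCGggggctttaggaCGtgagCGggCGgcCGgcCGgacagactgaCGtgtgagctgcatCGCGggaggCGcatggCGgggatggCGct
The motif searched was CG, which reads the same on both strands. SPTSSB held 14 such dinucleotides, equal to the median of 14 over 35116 promoter windows, and 50.3% of the windows held as many or more. SPTSSA held 49, a number reached by 1.60% of the windows. The other matched members lay between 22 (SPTLC1) and 50 (one of 2 windows of DEGS1). The RefSeq window of SPTSSB lies inside the span the deposited table gives for the gene, whose own start is farther upstream.

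SPTLC3 (ENSG00000172296.13, chromosome 20, 13008972 to 13169103, plus strand, GRCh38) was close to undetected in wild-type cells and was present at a low but even level in the knock-out clone. The libraries held 8, 2 and 6 counts in wild-type cells at the initial harvest and 2, 2 and 1 at the final harvest. In knock-out cells they held 85, 89 and 89 counts at the initial harvest and 107, 121 and 107 at the final harvest. Every knock-out library was above every wild-type library, and the libraries within each knock-out group lay close together. In CPM (counts scaled to a common library total after TMM normalisation) the group means were 0.132 ± 0.0747 and 0.0441 ± 0.0158 in wild-type cells, initial and final, against 2.22 ± 0.065 and 2.82 ± 0.229 in knock-out cells (SD, n = 3 each). In bulk RNA, more cells carrying a transcript and more transcript per cell cannot be told apart.

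Summed over 3 libraries, the knock-out held 263 counts against 16 in wild type at the initial harvest, a ratio of 16.8 per scaled total (95% exact interval 10.2 to 29.8, for counting error only, since the reads carried no molecular identifiers that the labels mention). At the final harvest the wild-type libraries were at or under the floor of 3 counts per library, which stands for 0.0814 CPM in the one with the lowest scaled total. Set against that floor, the final knock-out level of SPTLC3 was higher by at least 34.7-fold. The fitted log2 difference at the initial harvest was 4.04, and it was 4.43 without replicate 1 and 3.65 without replicate 2 of the initial wild-type group. Within the knock-out clone the ratio of final to initial was 1.27 (95% exact interval 1.08 to 1.5, again for counting error only). The edgeR fit, which takes in the spread between libraries, gave a 95% interval of 0.993 to 1.63 for this ratio, which includes 1. No p-value is given for any of these, because values of the same libraries chose the gene.

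Among genes raised from the floor in the final knock-out cells, SPTLC3 ranked highest by its level. A total of 31 genes were higher in the final knock-out cells with all final wild-type libraries at or under 3 counts, and SPTLC3 had the highest mean of them in the final knock-out libraries at 2.82 CPM. The gene just below it, CCDC198, had 2.0 CPM, and the third, IGFL2-AS1, had 1.20 CPM. These values chose the gene and are given as a description. The rank depends on the cut of 3 counts. The antisense RNA ENSG00000272502, with 6 to 7 counts in final wild-type libraries, lay outside it and had 4.99 CPM in the final knock-out.

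**Figure D1:**
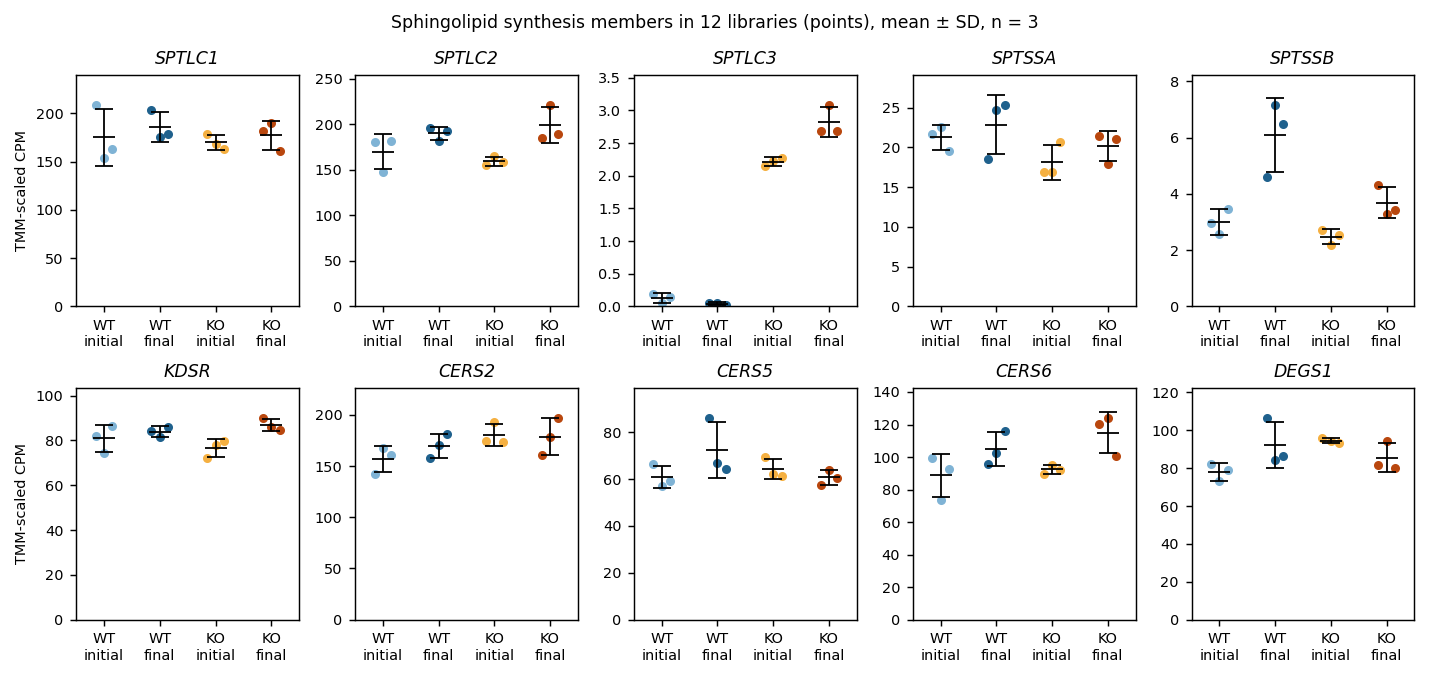
Level of each of the 10 genes in every library, in TMM-scaled CPM on axes that start at 0, by group (3 points per group, with the group mean ± SD). SPTLC3 lies at 0.0259 to 0.195 CPM in the wild-type libraries and at 2.14 to 3.09 CPM in the knock-out libraries, and SPTSSB is highest in the final wild-type group.

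Against its alternative SPTLC2 the SPTLC3 message remained a small fraction. To compare genes, CPM was divided by the exon length in the deposited table (8527 bases for SPTLC3, 9007 for SPTLC2). SPTLC3 then made up 1.43%, 1.41% and 1.49% of the sum of SPTLC2 and SPTLC3 in the initial knock-out libraries and 1.51%, 1.45% and 1.47% in the final ones. The 6 knock-out libraries stayed within 1.41% to 1.51%, with a mean of 1.46% ± 0.0384 (SD, n = 6). It was 1.38% when counts were not divided by length. In wild-type libraries the share was 0.114%, 0.0352% and 0.0872% at the initial harvest and 0.0293%, 0.0302% and 0.0142% at the final harvest. The highest wild-type library, at 0.114%, was below the lowest knock-out library, at 1.41%.

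SPTLC2 (chromosome 14) and SPTLC1 (chromosome 9), the subunits that make up the common form of the enzyme, did not pass the test in any of the 5 comparisons. SPTLC2 had 170 ± 19, 190 ± 7.1, 160 ± 4.86 and 199 ± 19.7 CPM in initial wild-type, final wild-type, initial knock-out and final knock-out cells (SD, n = 3 each, the order used below). Its log2 difference between knock-out and wild type was -0.09 at the initial harvest and 0.07 at the final harvest, the latter -0.0204 without replicate 2 of the final knock-out group. SPTLC1, the subunit that both forms share, had 175 ± 29.6, 186 ± 15.4, 170 ± 7.66 and 177 ± 15 CPM. Its genotype differences were -0.04 and -0.07. The first became 0.11 without replicate 1 of the initial wild-type group, the library with its highest value of 209 CPM, and the second 0.00414 without replicate 1 of the final wild-type group. The 3 genes ORMDL1, ORMDL2 and ORMDL3, which encode brakes on the enzyme, gave no call in any of the 5 comparisons (edgeR, 0 at an unadjusted p under 0.05 between the genotypes at the initial harvest and 1 at the final harvest), with log2 differences between -0.26 and -0.00437 over both harvests.

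**Figure D2:**
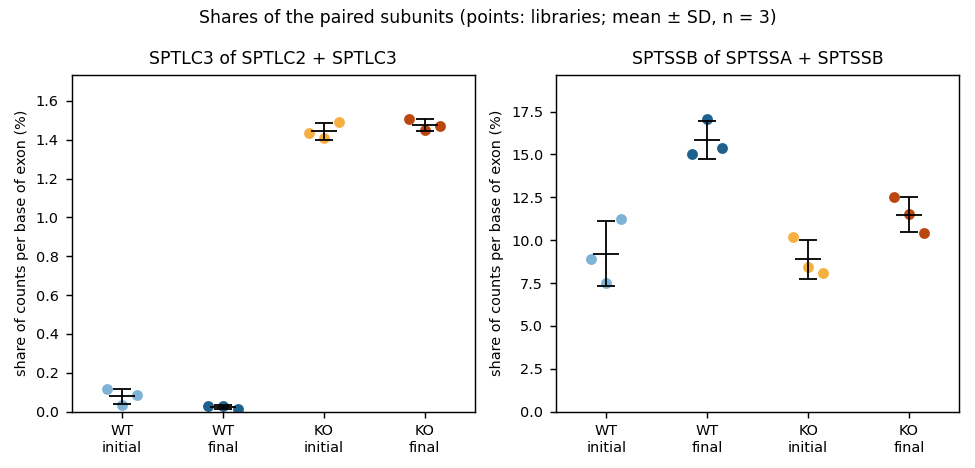
Share of SPTLC3 in SPTLC2 plus SPTLC3 and share of SPTSSB in SPTSSA plus SPTSSB, in percent per exon length, for each library with group means. SPTLC3 is at 1.41% to 1.51% in every knock-out library and at 0.114% or less in wild type, while SPTSSB is at 15% to 17.1% in the final wild-type libraries and at 7.5% to 12.5% in the others.

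SPTSSB (ENSG00000196542.8, chromosome 3, 161344792 to 161372880, minus strand) was the one member, SPTLC3 aside, that was called between the genotypes. Its final level in the knock-out was below that of wild type, and it rose over 2 months in wild-type cells. Its levels were 2.98, 2.57 and 3.48 CPM in initial and 4.61, 7.17 and 6.49 CPM in final wild-type libraries. In knock-out cells they were 2.70, 2.18 and 2.55 CPM in initial and 4.33, 3.29 and 3.44 CPM in final libraries. The final wild-type libraries were above all other libraries, and the initial libraries of both genotypes overlapped. At the final harvest the log2 difference between knock-out and wild type was -0.73 (SE 0.17, 95% interval -1.09 to -0.36, edgeR quasi-likelihood adjusted p = 0.00622). At the initial harvest it was -0.28 (95% interval -0.67 to 0.11, adjusted p = 0.326). The difference between these values did not pass its own test (log2 -0.44, 95% interval -0.98 to 0.09, edgeR adjusted p = 0.505), so the decrease was not shown to be larger at one harvest than at the other.

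Over time SPTSSB increased by 1.02 on the log2 scale in wild-type cells (SE 0.173, edgeR adjusted p = 0.00185), with means of 3.01 ± 0.455 and 6.09 ± 1.32 CPM (SD, n = 3 each). In knock-out cells the means were 2.48 ± 0.267 and 3.69 ± 0.56 CPM, a log2 difference of 0.57 that did not pass the test (edgeR adjusted p = 0.140). The counts behind these values were 87 to 275 per library. Both calls held in every alternative tried, with the final genotype difference between -0.887 and -0.601 and the wild-type difference over time between 0.891 and 1.17.

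SPTSSA (chromosome 14), the more abundant small subunit, had 21.3 ± 1.58, 22.9 ± 3.76, 18.2 ± 2.2 and 20.1 ± 1.91 CPM and passed no test. Its log2 differences between the genotypes were -0.23 at the initial harvest and -0.18 at the final harvest. The gene overlaps EGLN3 on the same strand, and how the counting treated reads that fall in both is not given in the sources used here. SPTLC2, CERS6 and DEGS1 also have an overlap on the same strand, and SPTLC1, CERS5 and CERS6 have overlaps on the other strand. The part of such overlaps in the values of these genes was not tested. SPTSSB overlaps no other gene in the annotation.

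Per exon length, SPTSSB made up 8.88%, 7.5% and 11.3% of both small subunits in initial wild-type libraries and 15%, 17.1% and 15.4% in final ones. In knock-out cells the shares were 10.2%, 8.43% and 8.06% at the initial harvest and 12.5%, 11.5% and 10.4% at the final harvest. The final groups did not overlap and the initial groups did. The knock-out share was 0.322 percentage points below wild type at the initial harvest and 4.35 points below at the final harvest. Averaged over the harvests the difference was -2.34 points (exact permutation test within harvests, two-sided, p = 0.045, smallest p the design allows 0.005). That p was not under 0.05 without any one of 10 of the 12 libraries (0.025 to 0.105 over all 12), while the difference itself stayed between -2.76 and -1.82 points.

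Among the enzymes after the first step, none was called in any comparison. KDSR (chromosome 18), the reductase, had 80.9 ± 5.99, 83.9 ± 2.39, 76.6 ± 3.89 and 86.8 ± 2.82 CPM, with log2 differences between the genotypes of -0.08 and 0.05. DEGS1 (chromosome 1), the desaturase, came nearest to a call. It had 82.1, 73.0 and 79.1 CPM in initial wild-type and 96.1, 94.3 and 93.2 CPM in initial knock-out libraries, and these groups did not overlap. The log2 difference was 0.28 (95% interval 0.07 to 0.48, edgeR adjusted p = 0.0512). It passed the threshold when only genes with at least 1 CPM in 3 libraries were tested (adjusted p = 0.0482), when the fit held only the groups compared (0.0277) and in DESeq2 (0.0371), and also without replicate 1 of the initial or of the final wild-type group or replicate 2 of the final knock-out group. At the final harvest DEGS1 had 92.4 ± 12.2 CPM in wild-type and 85.5 ± 7.63 CPM in knock-out cells, a log2 difference of -0.11 that became 0.00287 without replicate 1 of the final wild-type group. The test of the difference between the harvests did not pass (log2 -0.39, edgeR adjusted p = 0.217).

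The ceramide synthases differ in the chain they attach: CERS2 mainly adds very long chains, and CERS5 and CERS6 mainly add palmitate. CERS2 (chromosome 1) had 142, 167 and 161 CPM in initial wild-type and 175, 193 and 174 CPM in initial knock-out libraries. The ranges did not overlap, but the log2 difference of 0.20 did not pass the test (edgeR adjusted p = 0.144). CERS2 overlaps 3 genes on the other strand, SETDB1 among them, and whether the counting used strand is not given in the sources used here. CERS5 (chromosome 12) had 86.0, 67.0 and 64.4 CPM in final wild-type and 57.6, 64.0 and 60.5 CPM in final knock-out libraries. These did not overlap either, and the log2 difference was -0.26 (edgeR adjusted p = 0.106). CERS6 (chromosome 2) had 88.7 ± 13.4, 105 ± 10.3, 92.4 ± 2.61 and 115 ± 12.6 CPM. Its genotype differences were 0.06, which became -0.06 without replicate 2 of the initial wild-type group, and 0.13.

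**Figure D3:**
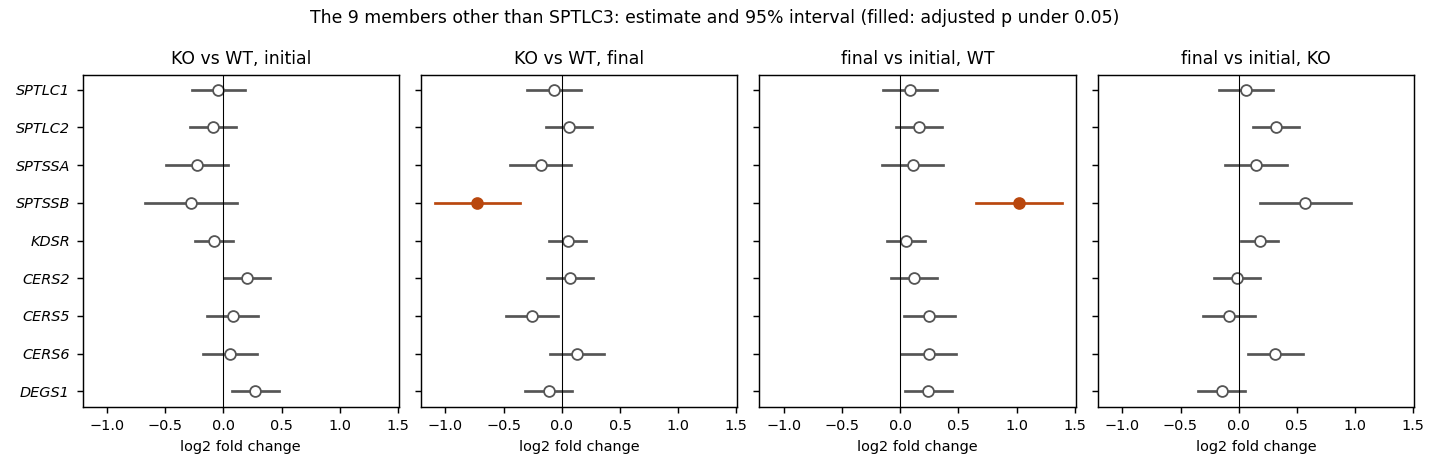
Log2 difference with its 95% interval for each of the 9 genes other than SPTLC3, from the edgeR fit. The comparisons are knock-out with wild type at each harvest and the harvests within each genotype. SPTSSB has intervals that leave out 0 at the final harvest (-0.73) and over time in wild type (1.02) and in the knock-out (0.57, not called after adjustment). The 8 remaining genes lie between -0.26 and 0.32, and none of them was called after adjustment. Their intervals leave out 0 for CERS2 and DEGS1 at the initial harvest and for CERS5 at the final harvest. Over time they do so for CERS5, CERS6 and DEGS1 in wild type and for SPTLC2, CERS6 and KDSR in the knock-out.

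Counted over the 9 members other than SPTLC3, 0 were called between the genotypes at the initial harvest (edgeR, 2 at an unadjusted p under 0.05, and 1 called in DESeq2), against 19.9% of all genes tested (8.55% higher and 11.3% lower, with 31.9% at an unadjusted p under 0.05). At the final harvest 1 was called, SPTSSB, and it was lower, against 18.5% of all genes (8.38% higher and 10.2% lower). At an unadjusted p under 0.05 there were 2, against 30.2%. The ranges of the 2 genotypes did not overlap for 2 of the 9 at the initial harvest (CERS2 and DEGS1) and for 2 at the final harvest (SPTSSB and CERS5), against 35.5% and 33.1% of all genes. The median log2 difference of the 9 was -0.04 and -0.07, beside 2.49e-05 and -0.000827 for all genes. Among the 8 members other than SPTLC3 and SPTSSB, the outermost bounds of the 95% intervals were -0.49 and 0.48 for the initial genotype comparison. They were -0.48 and 0.36 for the final one. These bounds came from different genes, and the interval of each single gene was narrower. Larger differences than these bounds lay outside all 8 intervals, with 3 libraries a group.

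Over 2 months in wild-type cells 1 of the 9 members was called, SPTSSB, and it was higher, against 6.47% of all genes tested (3.05% higher and 3.42% lower). At an unadjusted p under 0.05 there were 4, against 20% of all genes. In knock-out cells 0 of 9 were called (edgeR, 4 at an unadjusted p under 0.05), against 1.48% of all genes (0.837% higher and 0.64% lower, with 14.9% at an unadjusted p under 0.05). The libraries of the harvests did not overlap for 3 of the 9 in wild-type and 4 in knock-out cells, against 22.2% and 23.2% of all genes. The number of calls in knock-out cells was 3 when the fit held only the knock-out groups (SPTLC2, CERS6 and SPTSSB) and 1 in DESeq2 (SPTLC2). The median log2 differences over time were alike, 0.16 in wild-type and 0.15 in knock-out cells, beside 0.00565 and 0.00464 for all genes. SPTLC2 was 0.32 higher in the final knock-out libraries (edgeR adjusted p = 0.112) and CERS6 also 0.32 (edgeR adjusted p = 0.180), both without overlap of the libraries. In the test of whether the genotype difference changed between the harvests 0 of 9 were called (edgeR, 2 at an unadjusted p under 0.05), against 1.28% of all genes (0.809% higher and 0.476% lower, with 12.3% at an unadjusted p under 0.05). The comparisons over time share libraries with those between the genotypes.

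The order of levels per exon length was nearly the same in the 4 groups. CERS2 and DEGS1 were highest, at 33.8 and 31.9 CPM per kb in initial wild-type cells, and their libraries overlapped in all 4 groups. SPTLC1 followed at 26.9, 28.5, 26.1 and 27.2 CPM per kb, and then SPTLC2 at 18.9, 21.1, 17.7 and 22.1. CERS6 came next at 12.9 to 16.8, above CERS5 and KDSR, which lay at 8.48 to 10.7 and overlapped in all groups but the initial knock-out. SPTSSA lay at 6.82 to 8.59 CPM per kb, SPTSSB at 0.661 to 1.63, and SPTLC3 was last in every group. Its 0.260 and 0.331 CPM per kb in knock-out cells stood below the 0.661 and 0.984 of SPTSSB, the next gene up.

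The wider pathway was covered by a list of 66 other sphingolipid genes, of which 58 were tested. Between the genotypes 12 of these were called at the initial harvest (20.7%, 4 higher and 8 lower, against the 19.9% of all genes) and 9 at the final harvest (15.5%, 4 higher and 5 lower, against 18.5%). These shares are near the background. The count at the initial harvest was 7 without replicate 3 of the wild type, 6 without replicate 2 and 7 without replicate 3 of the knock-out. The median log2 differences were 0.02 and -0.04, also when ELOVL2, whose knock-out counts were at the floor, was placed at its bound. Over time 1 gene was called in wild-type cells, the ganglioside synthase B4GALNT1 (log2 -0.35, edgeR adjusted p = 0.0173, not called without replicate 2 or 3 of the final wild-type group). In knock-out cells 2 were called, SGPP2 and ELOVL6.

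Among the genes of the list called at both harvests (SGPP2, SPNS2, S1PR2, ALDH3A2 and ELOVL2), all but the elongase ELOVL2 make, break down, move or sense sphingosine-1-phosphate, the signalling lipid at the end of the pathway. Of 13 such genes 11 were tested, and 5 were called at each harvest, 2 higher and 3 lower (45.5%, beside 19.9% and then 18.5% of all genes tested). The 5 were not the same genes at both harvests. This group is set apart because its share was the highest in the list, where the other groups had 0 to 33.3%. The whole list had 20.7% and 15.5%, and no test of the group was run. At the final harvest the lowest log2 difference of the group, -0.75, belonged to a gene that was not called. Among the called genes, SGPP2, a phosphatase that returns sphingosine-1-phosphate to sphingosine, had the lowest log2 difference at each harvest. Its libraries held 14.1, 13.4 and 13.9 CPM in initial and 14.8, 15 and 14.3 CPM in final wild-type cells. In knock-out cells they held 5.78, 5.34 and 4.77 CPM at the initial and 8.60, 11.3 and 7.74 CPM at the final harvest, below all wild-type libraries. The log2 difference was -1.38 at the initial harvest (SE 0.127, edgeR adjusted p = 8.88e-07) and -0.67 at the final harvest (SE 0.122, edgeR adjusted p = 0.000822). Within the knock-out it rose by 0.80 over time (SE 0.128, edgeR adjusted p = 0.00351).

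SPNS2, the transporter that exports sphingosine-1-phosphate, was higher in the knock-out by 0.73 and 0.66 on the log2 scale (edgeR adjusted p = 5.56e-05 and 0.000143), from 7.9 ± 0.617 and 9.29 ± 0.603 to 13.1 ± 0.885 and 14.7 ± 0.737 CPM (SD, n = 3 each). SGPP2 and SPNS2 had the smallest adjusted p of their group, and the genes named next were added after their values were seen. The receptor S1PR2 was higher by 0.32 and 0.39 (edgeR adjusted p = 0.0182 and 0.00545), the first not called without replicate 3 of the wild type or replicate 2 or 3 of the knock-out. ALDH3A2, which oxidises the fatty aldehyde left when the lipid is cleaved, was lower by log2 differences of -0.29 and -0.34 (edgeR adjusted p = 0.00618 and 0.00178). SGPL1, the lyase that cleaves it, was lower at the initial harvest (log2 -0.37, edgeR adjusted p = 0.00275). SPHK1, a kinase that makes it, was lower at the final harvest (log2 -0.52, edgeR adjusted p = 0.0193), but not without replicate 2 of the final wild type or replicate 1 or 2 of the final knock-out.

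**Figure D4:**
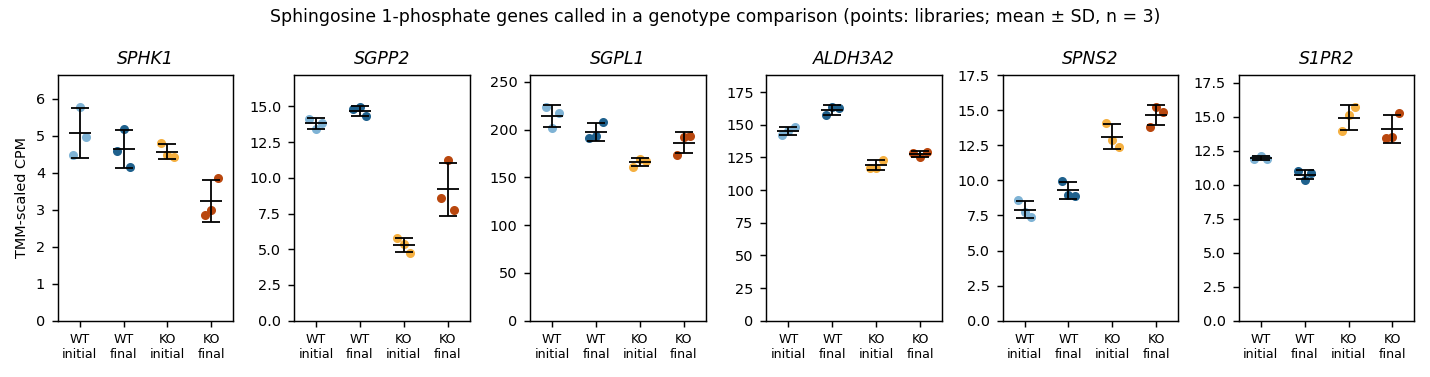
Levels of the called sphingosine-1-phosphate genes in each library, in TMM-scaled CPM by group. SGPP2 lies at 13.4 to 15 CPM in wild type and at 4.77 to 11.3 CPM in the knock-out, and SPNS2 is higher in both knock-out groups.

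Serine palmitoyltransferase shares its amino acid with other enzymes, listed here as 10 genes, of which 8 were tested. At each harvest 2 of them were called (25%, beside 19.9% and 18.5% of all genes tested), a share near the background. PTDSS1, which puts serine into phosphatidylserine, was higher at the initial harvest by 0.31 (edgeR adjusted p = 0.0136, not called without replicate 1 of the wild type or replicate 2 of the knock-out), and SARS1, the cytosolic seryl-tRNA synthetase, was lower (log2 -0.64, edgeR adjusted p = 6.7e-05). SARS1 was again lower at the final harvest (log2 -0.44, edgeR adjusted p = 0.00186). SHMT2, which splits serine in mitochondria to feed the reaction of MTHFD2, was called lower there (log2 -0.29, edgeR adjusted p = 0.0478), a call lost without any one of 9 libraries and under 4 other settings. In wild-type cells PTDSS1 rose by 0.52 over time (edgeR adjusted p = 0.00101).

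Of the 3 tested genes nearest to SPTLC3 on each side along chromosome 20, 6 in all, ISM1 and BTBD3 were called higher at both harvests, where 8.55% and 8.38% of all genes tested were called higher. ISM1, the nearest, starts 52.2 kb beyond SPTLC3 and encodes a secreted protein. It had 1.53 ± 0.122 and 0.984 ± 0.091 CPM in wild-type and 2.48 ± 0.087 and 1.96 ± 0.472 CPM in knock-out cells, initial and final (SD, n = 3 each). The log2 differences were 0.70 and 0.99 (edgeR adjusted p = 0.00972 and 0.00152). BTBD3, which ends 1082 kb before SPTLC3, was higher by 0.41 and 0.60 (edgeR adjusted p = 0.00376 and 0.000183). It overlaps BTBD3-AS1 on the other strand, which was not called at either harvest, and neither were JAG1, TASP1 or GAPDHP2. A processed pseudogene inside SPTLC3 on the other strand, ENSG00000271426, had 0 to 3 counts per library and was not tested.

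The genes whose levels followed SPTLC3 most closely over the 12 libraries were B3GALT5, a galactosyltransferase (Pearson r = 0.993 of log2(CPM + 0.5)), ANK1, a membrane anchor protein (0.992), the antisense RNA ENSG00000272502 (0.991), the long noncoding RNA ENSG00000285280 (0.990) and the potassium channel KCND3 (0.989). They were ranked among 13883 genes with a mean of at least 1 CPM. The libraries fall into the 2 genotypes, and the value describes a step between them rather than a relation within either. B3GALT5 had 5.37 and 4.71 CPM in wild-type and 14.9 and 17.0 CPM in knock-out cells, and ENSG00000272502 had 0.198 and 0.167 against 4.95 and 4.99 CPM.

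Library totals were 38597809 to 40017561 counts, with 27536 to 29015 genes having a count, and libraries correlated at 0.993 to 0.998 within and 0.986 to 0.997 between groups across genes. MTHFD2 itself was at 413 ± 41.2 and 355 ± 32.4 CPM in wild-type and 137 ± 9.1 and 137 ± 16.7 CPM in knock-out cells (SD, n = 3 each), the direction the labels give. Of 8 markers of colon epithelium 6 had a mean of at least 1 CPM in every group, at a summed 2214 to 3232 CPM per library. VIL1 and CEACAM5 did not pass the filter on low counts. Markers of fibroblasts summed to 56.8 to 78.8 CPM in wild-type and 37.5 to 59.3 CPM in knock-out libraries, those of leukocytes to 0.464 to 1.02 and 1.21 to 1.99 CPM, those of endothelium to 1.22 to 1.90 and 1.28 to 2.22 CPM, and those of keratinocytes, a cell type in which SPTLC3 is known to be expressed, to 8.98 to 15.3 and 9.95 to 11.3 CPM, nearly all of it KRT10. Single markers moved with the genotype as SPTLC3 did. The keratins KRT14 (0.157 to 0.623 CPM at the initial harvest, log2 1.97, edgeR adjusted p = 0.000302) and KRT5 (0.231 to 0.455 CPM, log2 0.97, edgeR adjusted p = 0.033) were called higher in the knock-out, KRT14 also at the final harvest (0.0531 to 0.353 CPM). LYZ was higher by 2.48 and 1.48 (edgeR adjusted p = 1.15e-06 and 0.000189), at 1.72 and 1.31 CPM in the knock-out, and PDGFRB by 0.96 and 1.08 (edgeR adjusted p = 0.00816 and 0.00333). Lower in the knock-out at both harvests were the epithelial CDH1 (log2 -1.01 and -0.44, edgeR adjusted p = 4.77e-05 and 0.0291) and EPCAM (log2 -0.36 and -0.31, edgeR adjusted p = 0.0151 and 0.039) and the collagen COL1A1 (log2 -0.60 and -0.48, edgeR adjusted p = 0.0035 and 0.0167). COL3A1 was lower at the initial harvest, and KRT18 and KRT19 at the final harvest. The defining markers at 0 in every library were 2 of 6 for fibroblasts and 1 of 5 for leukocytes, and the part of other cell types in the SPTLC3 and SPTSSB differences was not tested.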

How the data were processed

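RNA of 12 HCT116 libraries was sequenced and counted per gene by the authors. The submitters' processing notes name STAR, Subread, featureCounts and the hg38 build. Versions, read length and strand setting are not given in the sources used here. What the authors deposited are whole-number counts of each gene, not normalised, with its position and exon length per the file headers. Of its lines, 5 that were broken were left out, and 60648 genes remained, 60636 of them with a symbol. For 37318 of these the identifier version and the position were those of GENCODE 29.

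The members and gene lists were chosen with earlier results of these data known. Counts were tested with edgeR 4.0.16 (R 4.3.3, limma 3.58.1) by its quasi-likelihood test, with TMM factors, its filter on low counts by group and 1 model of the 4 groups. A gene was called at a Benjamini-Hochberg adjusted p under 0.05 over all 18289 genes tested, without a minimum fold, and intervals are 95% intervals of the fit. The script was tested on simulated data. Totals were 38597809 to 40017561 counts per library. The floor of 3 counts was 0.0814 CPM in the final wild-type library with the lowest TMM-scaled total (36849728). Shares of alternative subunits were compared with an exact permutation test (SciPy 1.17.1), coding sequences were aligned with Biopython 1.88, and promoters came from the RefSeq table.

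Besides the members, the genes named were the lowest adjusted p of each role of the wider list in each genotype comparison where called, called serine users, 3 tested neighbours of SPTLC3 on each side, the 5 genes most like it, and MTHFD2. Others are said to be added. Alternatives were RLE factors, other filters, fits of only the groups compared, a replicate block, DESeq2 1.42.0, an adjusted p under 0.01 and leaving out each library.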

Additional observations from a re-analysis of the deposited data

How the results depend on the processing

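Of 1625 recomputed values of single genes, 1509 kept their direction and side of the threshold, 83 lost a call, 11 gained one, 2 moved and 20 changed sign. The 20 came from 12 differences that were not called, each with a single library left out. Over the libraries left out, these ranged between the genotypes at the initial harvest from -0.13 to 0.11 (SPTLC1) and -0.0607 to 0.15 (CERS6), and at the final harvest from -0.12 to 0.00414 (SPTLC1), -0.0204 to 0.11 (SPTLC2), -0.00919 to 0.14 (CERS2) and -0.19 to 0.00287 (DEGS1). Over time they ranged in wild type from -0.00464 to 0.23 (SPTLC1) and -0.00903 to 0.0943 (KDSR), and in the knock-out from -0.10 to 0.0456 (CERS2). For the change between harvests they ranged from -0.18 to 0.0619 (SPTLC1), -0.0751 to 0.15 (SPTSSA) and -0.0244 to 0.19 (CERS6). The SPTLC3 share was 1.38% without division by length and 1.45% to 1.47% over the fits that left out a library, and the SPTSSB share difference was -2.76 to -1.82 points. Members called at the initial harvest numbered 1 with at least 1 CPM in 3 libraries, with only the groups compared and in DESeq2, and 0 to 1 without single libraries. They numbered 1 at the final harvest and over time in wild type without any library, 0 in the test of the change between harvests, and over time in the knock-out 3 with only the groups compared, 1 in DESeq2 and 0 to 1 without single libraries. The wider list gave 5 calls at the initial harvest at an adjusted p under 0.01. Over time in wild type it gave 2 without a filter, 0 with only the groups compared, 4 in DESeq2 and 0 at an adjusted p under 0.01, and in the test of the change between harvests 2 without a filter and 2 in DESeq2. Without single libraries it gave 6 to 17 and 6 to 13 between the genotypes (initial, final), 0 to 5 and 1 to 3 over time (wild type, knock-out) and 0 to 2 for the change. Except where fewer samples or genes entered, the cause was not tested.

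With the replicate number as a block, the members gave 0, 1, 1, 0 and 0 calls and the wider list 12, 9, 1, 2 and 0 in the 5 comparisons, the numbers without it, and the final SPTSSB difference was -0.73 (edgeR adjusted p = 0.00876). Only 8 of 18 same-numbered pairs deviated together at a correlation over 0.1 (-0.571 to 0.496), and 13 of 36 matches were to the own number, so the numbers were not taken as pairs. Depth limits SPTLC3 in wild-type cells, where 1 to 8 counts stand behind each value, and SPTSSB less so, at 87 to 275 counts.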

Other observations

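The elongases build the long fatty acyl chains that ceramide synthases use, and of 6 tested members 1 was called between the genotypes at the initial harvest (ELOVL2) and 2 at the final harvest (ELOVL2 and ELOVL6), beside 19.9% and 18.5% of all genes tested. ELOVL2, which extends polyunsaturated chains (chromosome 6, 10980759 to 11044305), had 23, 18 and 12 counts in initial and 14, 14 and 17 counts in final wild-type libraries, and 1, 2 and 2 and then 0, 1 and 1 counts in knock-out libraries. It was at least 5.69-fold lower at the initial harvest and at least 5.16-fold lower at the final harvest, taken against a floor of 3 counts per library. ELOVL6, which extends palmitate, was higher in the knock-out at the final harvest (log2 0.36, edgeR adjusted p = 0.00451). It also rose over 2 months in knock-out cells (0.46, edgeR adjusted p = 0.00898), a call lost without any one of 5 of the 6 knock-out libraries. ELOVL6 was chosen after its values were seen.

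Single genes from other branches were called at 1 harvest. At the initial harvest the ceramide synthase CERS4 was higher in the knock-out (0.29, edgeR adjusted p = 0.0387), as was the sphingomyelinase SMPD4 (0.25, edgeR adjusted p = 0.048). The galactosylceramide synthase UGT8 (-0.38, edgeR adjusted p = 0.0108), the lysosomal activator GM2A (-0.35, edgeR adjusted p = 0.0105), the sialyltransferase ST3GAL5 (-0.28, edgeR adjusted p = 0.0273, added after its values were seen) and the sphingomyelin synthase SGMS1 (-0.23, edgeR adjusted p = 0.0488) were lower. At the final harvest the glycosphingolipid synthesis gene A4GALT was lower (-0.44, edgeR adjusted p = 0.0164) and the sphingomyelinase SMPD3 was higher (0.54, edgeR adjusted p = 0.0314). Each of these calls was lost in at least 2 of the fits that left out a single library: for UGT8 without replicate 1 of the initial wild type or replicate 2 of the initial knock-out, for GM2A without replicate 3 of either initial group, for A4GALT without replicate 2 of the final wild type or replicate 1 or 2 of the final knock-out, and for SMPD3 without replicate 2 or 3 of the final wild type or replicate 2 of the final knock-out. CERS4, SGMS1, SMPD4 and ST3GAL5 were lost more often.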
